A study of Mus musculus with 66 samples.

Results

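Hippocampal gene expression was compared between 3 and 1 months post injection (mpi) of brain extract from Alzheimer's disease (AD) in the 12-month cohort. The members are the 12 libraries that the labels place in these groups, 6 at 1 mpi and 6 at 3 mpi, of 66 libraries in the series, and the comparison runs over all genes. The strain is C57BL/6, an inbred laboratory mouse, and what was sequenced is hippocampal poly(A) RNA. The mice of this cohort are labelled 12 months of age and received either AD brain extract or control brain extract (Ctrl). The same interval after control extract, in 5 libraries at 1 mpi and 6 at 3 mpi, is the background comparison. Later values come from 7 AD libraries at 5 mpi, and a younger cohort labelled 3 months holds 6 AD libraries at 1 mpi and 5 at 3 mpi. Whether the labelled age is that at injection or at collection is not stated, and the labels do not name an injection site, an hour of collection or a sex, nor state that each library is a separate animal. P-values therefore measure the spread between libraries, which may be technical. In the reported fits this spread is pooled over all groups of a cohort, 37 libraries in the 12-month cohort, and not only over those compared.

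The title of the series refers to tauopathy that is seeded: misfolded tau in the extract acts as a template on which tau made by the mouse aggregates over months. Injection into the brain also wounds tissue, and microglia and astrocytes near a wound or a deposit switch on phagocytic, lysosomal and acute-phase genes. The circadian clock is a feedback loop in nearly every cell: BMAL1 and CLOCK switch on Per, Cry, Nr1d and Dbp genes through E-box sequences, and these products then repress or relay the signal, so their mRNA levels depend on the hour at which tissue is taken. The unfolded protein response raises chaperones of the endoplasmic reticulum (ER) when secretory proteins misfold or secretory load grows, partly through a promoter sequence called the ER stress response element (ERSE).

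Each library of the 2 groups held between 42462638 and 55985932 reads assigned to genes. A level is the deposited library-scaled value in RPM, reads of a gene per 1000000 reads, and is compared only within a gene. Differences are 3 mpi minus 1 mpi on the log2(RPM + 1) scale, which understates the change of low genes, with standard errors (SE) and Benjamini-Hochberg adjusted p-values from limma over 20084 tested genes. Markers of hippocampal neurons were present in all 12 libraries: Prox1, of dentate granule neurons, ran from 72.48 to 114.8 RPM at 1 mpi and from 56.98 to 121.3 RPM at 3 mpi. Fibcd1, of CA1 pyramidal neurons, ran from 126.5 to 152.6 RPM and from 125.6 to 150.9 RPM, and Grik4, of CA3 pyramidal neurons, from 42.68 to 49.79 RPM and from 37.89 to 47.21 RPM. The tissue label is met by these genes in both groups.

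A split between libraries coincides with the comparison. The mean log2(RPM + 1) of 5 pseudogenes (Gm10275, Gm3724, Gm15920, Gm6180 and Eif4a-ps4, chosen after their values were seen) ran from 2.67 to 3.23 in the 6 AD libraries at 1 mpi and from 1.55 to 1.99 in the 6 at 3 mpi. All 5 are themselves among the genes called lower in this comparison. Their separation between the 2 AD groups therefore follows in part from the choice. Ctrl libraries at 1 mpi sat at 2.95 to 3.13, and those at 3 mpi fell apart into replicates 1, 2 and 4 at 2.63 to 2.76 and replicates 3, 5 and 6 at 1.54 to 1.73. At 5 mpi the AD libraries again took both states, replicates 1, 2, 4 and 5 at 3.04 to 3.11 and replicates 3, 6 and 7 at 1.65 to 1.90. The Ctrl libraries at 5 mpi lay between these levels, at 2.02 to 2.26, so the score is not a clean split into 2 states. What sets this state was not tested, and within the AD libraries of 1 and 3 mpi it cannot be told apart from the time after injection. Values with this score as a covariate are given for most called genes named below. The 5 mpi AD states also follow sex-linked genes, replicates 1, 2, 4 and 5 being high in Xist and replicates 3, 6 and 7 in Ddx3y, whereas among 3 mpi Ctrl libraries the Ddx3y libraries are those with high pseudogenes. The slope of the covariate rests on these groups and on the spread within the others. By their sex-linked genes, 3 of 6 libraries in each AD group were high in Xist and the other three in Ddx3y. The 1 mpi AD replicate 3 held Xist at 24.3 RPM beside Ddx3y at 83.2 RPM.

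**Figure D1:**
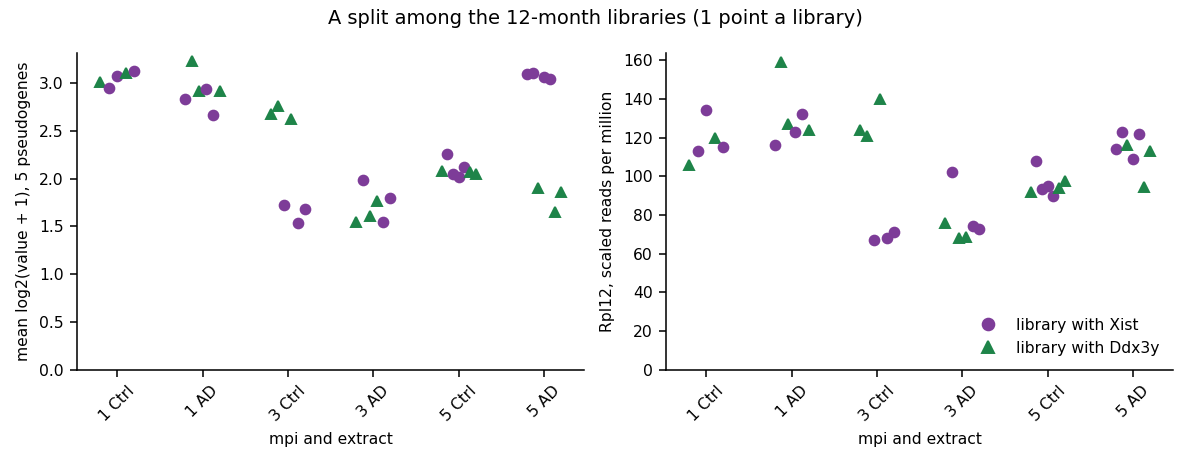
Mean log2(RPM + 1) of 5 pseudogenes (left) and RPM of Rpl12 (right) on the vertical axes, by mpi and extract on the horizontal axis, with 1 point per library of the 12-month cohort, round for libraries high in Xist and triangular for those high in Ddx3y. The 6 AD libraries at 3 mpi lie between 1.55 and 1.99 in the pseudogene score, below all 6 at 1 mpi (2.67 to 3.23). Ctrl libraries at 3 mpi and AD libraries at 5 mpi occupy both levels, and Ctrl libraries at 5 mpi lie between them (2.02 to 2.26). The 5 pseudogenes are themselves among the genes called lower between these AD groups.

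From 1 to 3 mpi after AD extract, 4 circadian clock genes rose. The major ER chaperones fell, as did a set of microglial, lysosomal and astrocyte injury genes. In all, 167 genes passed the threshold (adjusted p under 0.05, limma), 0.832% of those tested: 48 rose (0.239%) and 119 fell (0.593%). Called rises spanned 0.14 to 0.89 and called falls -2.02 to -0.17, with medians of 0.24 and -0.39, against a median of 0.00186 over all tested genes. Groups did not overlap for 26 of the 48 genes that rose and 58 of the 119 that fell. Over all tested genes, every 3 mpi library lay above every 1 mpi library for 0.508% and below for 0.548%. A difference above 0 was found for 50.7% of all tested genes.

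The same interval after control extract passed the threshold for 4 genes (0.0199% of those tested), all higher. These were Dbp (0.51), Mfsd4a (0.36), Hectd2 (0.39) and 4930578M01Rik (0.60), of which the last was named after its value was seen. None passed in the lower direction, where 922 genes (4.59%) reached an unadjusted p under 0.05, and the lower calls were 0 in edgeR and 9 in DESeq2. The AD and Ctrl intervals were not shown to differ: no gene passed the test of the difference in limma, edgeR or DESeq2. An unadjusted p under 0.05 was reached by 884 genes in limma, fewer than the 1004.2 that chance gives. Of all tested genes, 2.42% did so with a higher and 1.98% with a lower difference after AD extract. Of the 119 genes that fell after AD extract, 114 were also below 0 in Ctrl, with a median of -0.15, and of the 48 that rose, 44 were above 0, with a median of 0.13. The called genes were chosen on the AD values, so a larger AD than Ctrl value among them (119 of 119 and 45 of 48) is a description with no test.

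Calls changed when single libraries were left out and when the pseudogene score was a covariate. The score does not overlap between the AD groups compared, so a call lost with it does not tell the library state from the time. Without 1 library the count ran from 43 (without the 3 mpi AD replicate 1) to 270 (without the 1 mpi AD replicate 2), and fitted on the 12 compared libraries alone it was 35, of which 33 are among the 167. Of the 167 genes, 38 stayed called whichever of the 12 libraries was left out and 140 stayed called in edgeR's quasi-likelihood test on the recovered reads. With the pseudogene score as a covariate, 25 genes were called, 9 higher and 16 lower, and 20 of them were among the 167. That fit tested 20079 genes and left out the 5 pseudogenes of the score, which are among the 167 and could not stay called. All 4 clock genes and 4 of the 6 called members of the unfolded protein response list held without each library. So did 3 of 5 of the reactive astrocyte list (Lcn2, Steap4 and S1pr3). Fewer held for disease-associated microglia (1 of 7) and for lysosome and autophagy (2 of 8). With the covariate, 3 clock genes and 5 members of the unfolded protein response list stayed called, and none of the microglial, lysosomal or reactive astrocyte lists, although several of those differences were as large with wider standard errors. Fitted on the 12 compared libraries alone, 4 of 4 called clock genes, 4 of 6 of the unfolded protein response, 2 of 7 of disease-associated microglia, 2 of 8 of lysosome and autophagy and 0 of 5 of reactive astrocytes stayed called.

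Circadian clock genes rose in part. Of 16 tested genes in the circadian clock list, 4 passed the threshold, all higher (background 0.239%), 9 had an unadjusted p under 0.05 in that direction (6.56% of all genes), 13 lay above 0, and the list median was 0.20 (0.10 in Ctrl, 0.00186 over all genes). Dbp, a transcription factor that binds D-box sequences and follows the clock (GRCm38 chr7:45705088-45710203), held 21.97, 26.62 and 31.11 RPM (lowest, median and highest) in the 6 AD libraries at 1 mpi and 47.13, 50.69 and 57.7 RPM at 3 mpi. The groups are far apart: every 3 mpi library was above every 1 mpi library. The difference was 0.89 (SE 0.088, adjusted p = 6.8e-08, limma). In Ctrl libraries Dbp rose as well, from 27.15, 30.3, 44.96, 28.15 and 31.89 RPM at 1 mpi to a lowest of 42.66, median of 46.13 and highest of 47.86 RPM at 3 mpi, where replicate 3 of 1 mpi sat among the 3 mpi libraries. The Ctrl difference was 0.51 (adjusted p = 0.0244, limma), and the AD interval exceeded it by 0.39 (unadjusted p = 0.0043, adjusted p = 0.979).

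Ciart, a repressor of CLOCK and BMAL1 (chr3:95878503-95882251), held 4.145, 4.524 and 6.563 RPM at 1 mpi and 7.692, 8.905 and 10.67 RPM at 3 mpi, with no overlap, a difference of 0.76 (SE 0.10, adjusted p = 6.78e-05, limma). Nr1d1, which encodes the heme-binding repressor REV-ERB alpha (chr11:98767932-98775333), held 44.36, 53.47 and 59.66 RPM and then 73.74, 75.36 and 80.62 RPM, a difference of 0.53 (SE 0.074, adjusted p = 0.000128, limma). Nr1d2, its paralog REV-ERB beta, held 111, 116.8 and 129.8 RPM and then 134.3, 146.4 and 159.3 RPM, a difference of 0.30 (SE 0.059, adjusted p = 0.00861, limma). In all 4 genes the 6 libraries of 3 mpi were the higher ones without exception. In Ctrl, the differences of Ciart, Nr1d1 and Nr1d2 were 0.26, 0.33 and 0.17, none of which passed. With the pseudogene covariate Dbp (0.95, adjusted p = 6.69e-05), Ciart (0.73, adjusted p = 0.0175) and Nr1d1 (0.57, adjusted p = 0.00867) stayed called in limma, and Nr1d2 (0.26, adjusted p = 0.204) did not.

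Other clock genes did not pass. The period genes Per1 (0.32, SE 0.099, adjusted p = 0.11) and Per3 (0.31, SE 0.099, adjusted p = 0.124), whose proteins hold back BMAL1 and CLOCK, lay above 0. So did the cryptochrome Cry2 (0.21, adjusted p = 0.0982) and the repressor Bhlhe40 (0.24, adjusted p = 0.0919), all by limma. Arntl, which encodes BMAL1 itself and peaks opposite to Dbp in the daily cycle, lay below 0 (-0.15, SE 0.089, adjusted p = 0.469). The labels give no hour of collection, so the hour and the time after injection cannot be told apart.

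At 5 mpi the 4 genes were back near their 1 mpi levels. Dbp held 22.83, 26.94 and 33.24 RPM in the 7 AD libraries at 5 mpi, Ciart 4.225, 5.21 and 5.92 RPM, and Nr1d1 47.91, 55.45 and 59.82 RPM. From 3 to 5 mpi, Dbp (-0.90), Ciart (-0.69), Nr1d1 (-0.46) and Nr1d2 (-0.35) passed the threshold in limma, in a comparison that shares the 3 mpi AD libraries and calls 39 genes (0.194%, with 0.144% higher and 0.0498% lower). In the 3-month cohort, in another table with its own libraries, the 3 minus 1 mpi differences were 1.32 for Dbp (adjusted p = 0.000606), 1.03 for Ciart (adjusted p = 2.93e-06) and 0.61 for Nr1d2 (adjusted p = 0.00436), while Nr1d1 (0.27, adjusted p = 0.269) did not pass in limma.

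**Figure D2:**
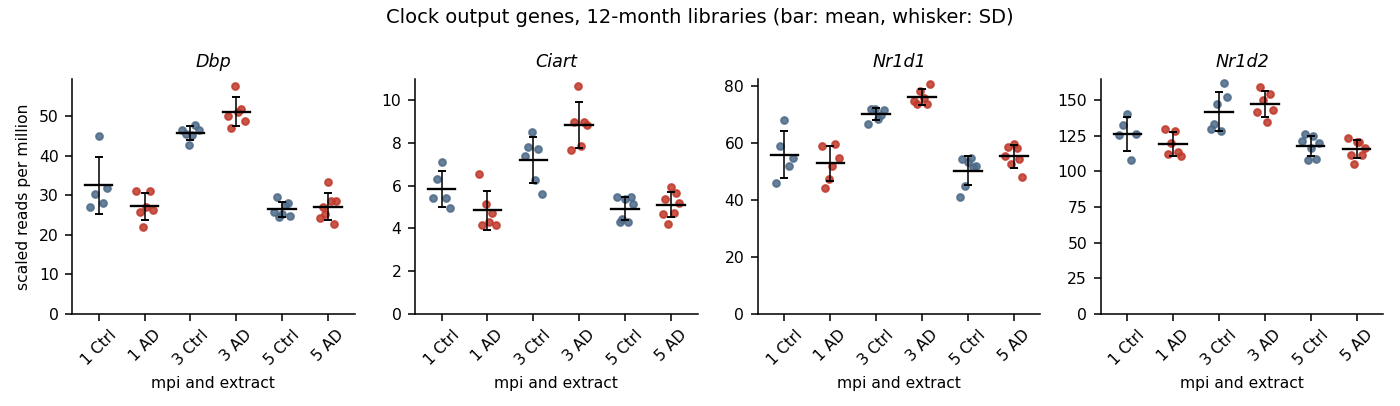
Deposited RPM of Dbp, Ciart, Nr1d1 and Nr1d2 on the vertical axes, 1 point per library of the 12-month cohort, by time and extract on the horizontal axis, with a bar at each group's mean and a whisker of 1 SD. All 6 AD libraries at 3 mpi lie above all 6 at 1 mpi in each panel (Dbp 47.13 to 57.7 against 21.97 to 31.11 RPM), and the AD libraries at 5 mpi overlap those at 1 mpi (Dbp 22.83 to 33.24 RPM).

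Ciart is shown with its promoter because its window holds E-boxes and those of the other 3 genes do not. The window runs from 250 bases before to 50 after the annotated start in RefSeq on GRCm38.p6 (chr3:95882179-95882478, minus strand), and capitals mark the E-box CACGTG, which reads the same on both strands.

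Ciart: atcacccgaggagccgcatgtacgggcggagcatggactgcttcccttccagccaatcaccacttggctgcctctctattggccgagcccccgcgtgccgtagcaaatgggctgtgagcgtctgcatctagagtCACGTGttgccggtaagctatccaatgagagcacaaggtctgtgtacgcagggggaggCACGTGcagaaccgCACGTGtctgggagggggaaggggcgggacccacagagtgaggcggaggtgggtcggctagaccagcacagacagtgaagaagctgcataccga

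Ciart holds 3 E-boxes in this window, whereas Dbp, Nr1d1 and Nr1d2 hold none there. Of 40 genes that rose and had a promoter entry, 6 (15%) held at least 1 E-box, against 7.87% of the 89 with an entry that fell, 10.7% of 13702 tested genes with an entry and 7.15% of all 32851 entries. These letters are a description of the window and not a bound site. The transporter Mfsd4a and the kinase gene Eef2k are among the 6.

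ER chaperones fell together. Of 14 tested genes in the unfolded protein response list, 6 passed, all lower (background 0.593%), 12 lay below 0, and the median was -0.30 (-0.18 in Ctrl, 0.00186 over all genes). Hspa5, which encodes BiP, the central Hsp70 chaperone and stress sensor of the ER lumen (chr2:34771970-34777547), held 430.6, 508.1 and 582.8 RPM in AD libraries at 1 mpi and 254.9, 331.8 and 415.3 RPM at 3 mpi, with no overlap. The difference was -0.60 (SE 0.11, adjusted p = 0.0066, limma). Calr, which encodes the lectin chaperone calreticulin (chr8:84841850-84846934), held 436.3, 468.7 and 528.6 RPM and then 314.7, 369.4 and 391.7 RPM, a difference of -0.39 (SE 0.056, adjusted p = 0.000195, limma). Every library of 3 mpi was below every library of 1 mpi in both genes.

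Hsp90b1, which encodes the ER form of Hsp90, GRP94 (chr10:86690209-86705509), held 433.6, 447.4 and 480 RPM and then 316.6, 360.3 and 392.5 RPM (-0.34, SE 0.056, adjusted p = 0.00142, limma). Sdf2l1, a cofactor that keeps BiP working with its J-domain partners (chr16:17130138-17132383), held 9.039, 13.02 and 14.98 RPM and then 4.357, 6.873 and 8.597 RPM (-0.80, SE 0.15, adjusted p = 0.00725, limma). Groups did not overlap in either gene. Pdia4, a disulfide isomerase, was lower with overlapping groups (45.5, 57.39 and 63.6 RPM, then 28.45, 40.87 and 46.86 RPM; -0.49, adjusted p = 0.0307, limma), as was Manf, a secreted ER stress factor (33.42, 40.9 and 44.8 RPM, then 23.94, 30.26 and 35.78 RPM; -0.40, adjusted p = 0.0492, limma). These calls were the least stable of the list: that of Pdia4 was lost without any 1 of 6 of the 12 libraries (adjusted p up to 0.113) and that of Manf without any 1 of 8 (up to 0.159). Manf was also not called with the pseudogene covariate (-0.55, adjusted p = 0.0913).

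Further ER folding genes outside the list, named after their values were seen, moved the same way. The disulfide isomerases Pdia6 (140.8, 147.8 and 156.8 RPM, then 87.88, 112.7 and 124.9 RPM; -0.45, adjusted p = 0.00041) and Pdia3 (315.7, 329 and 359.9 RPM, then 241, 266.2 and 281.3 RPM; -0.33, adjusted p = 0.000668) fell with no overlap by limma. So did Dnajb11, a J-domain partner of BiP (60.49, 62.14 and 65.97 RPM, then 48.22, 52.94 and 57.81 RPM; -0.24, adjusted p = 0.0127), a call lost without the 3 mpi AD replicate 1 (adjusted p = 0.0568), with the pseudogene covariate (-0.23, adjusted p = 0.174) and with only the 12 compared libraries (adjusted p = 0.0714). Of the signalling arms, Xbp1, a transcription factor of the response, lay at -0.27 (adjusted p = 0.214), and Creld2, an ER stress target, at -0.40 (adjusted p = 0.0763). Trib3, a pseudokinase gene driven by the ATF4 arm, lay on the other side at 0.44 (SE 0.14, adjusted p = 0.12, limma).

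After control extract none of these genes passed, and the difference between the extracts did not pass either. Yet 8 of the 14 list genes had an unadjusted p under 0.05 in the lower direction in Ctrl (4.59% of all genes, limma). After AD extract 9 of the 14 did (7.67% of all genes). Hspa5 held 404.8, 424.5, 388.2, 401.6 and 471.9 RPM in the Ctrl libraries at 1 mpi and 256, 315.5 and 427 RPM (lowest, median and highest) at 3 mpi, a difference of -0.39 (adjusted p = 0.294, limma), and the AD interval differed from it by -0.21 (adjusted p = 0.979). The Ctrl differences were -0.19 for Calr, -0.10 for Hsp90b1 and -0.40 for Sdf2l1, none of which passed. Within the Ctrl libraries of 3 mpi the 2 library states gave unlike values: Hspa5 was -0.66 in the 3 libraries with high pseudogenes, all of which are Ddx3y libraries, and -0.12 in the 3 with low pseudogenes, all Xist libraries. In the AD comparison Hspa5 was -0.40 in Xist libraries and -0.81 in Ddx3y libraries, a difference of 0.42 that did not pass (adjusted p = 0.269, limma). With the pseudogene covariate the AD differences were larger, at -0.83 for Hspa5 (adjusted p = 0.00867), -0.48 for Calr (adjusted p = 0.00233), -0.38 for Hsp90b1 (adjusted p = 0.0267), -1.03 for Sdf2l1 (adjusted p = 0.0238) and -0.73 for Pdia4 (adjusted p = 0.0267) in limma.

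At 5 mpi the medians lay between those of 1 and 3 mpi: 427.8 RPM for Hspa5 (324.5 to 503.5), 435.6 RPM for Calr (367.8 to 475.3) and 392.5 RPM for Hsp90b1 (377.6 to 457.8). The 5 minus 3 mpi differences of these genes (0.29, 0.22 and 0.18) did not pass. In the 3-month cohort the 3 minus 1 mpi differences were -0.29 for Hspa5 (adjusted p = 0.351), -0.34 for Calr (adjusted p = 0.0959) and -0.20 for Hsp90b1 (adjusted p = 0.271), none of which passed in limma.

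**Figure D3:**
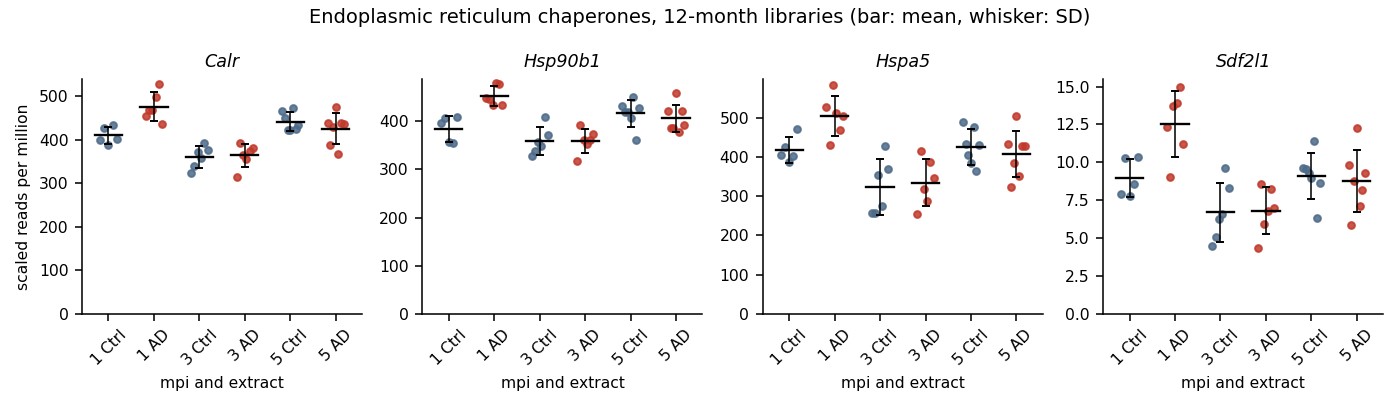
Deposited RPM of ER chaperone genes on the vertical axes, 1 point per library of the 12-month cohort, by time and extract on the horizontal axis, with a bar at each group's mean and a whisker of 1 SD. The AD libraries at 3 mpi (Hspa5 254.9 to 415.3 RPM) lie below those at 1 mpi (430.6 to 582.8 RPM). In Hspa5 the Ctrl libraries at 3 mpi spread over much the same range as the AD libraries at 3 mpi.

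The promoters of 4 of these genes are shown because they share a rare sequence. The windows are those of RefSeq on GRCm38.p6: chr2:34771840-34772139 (plus strand) for Hspa5, chr8:84846882-84847181 (minus strand) for Calr, chr10:86705395-86705694 (minus strand) for Hsp90b1 and chr12:17266339-17266638 (plus strand) for Pdia6. Capitals mark matches to the ERSE, which is CCAAT, any 9 bases and CCACG, searched on both strands. The match in Calr and the second of 2 in Hsp90b1 lie on the opposite strand and so appear in reverse complement.

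Hspa5: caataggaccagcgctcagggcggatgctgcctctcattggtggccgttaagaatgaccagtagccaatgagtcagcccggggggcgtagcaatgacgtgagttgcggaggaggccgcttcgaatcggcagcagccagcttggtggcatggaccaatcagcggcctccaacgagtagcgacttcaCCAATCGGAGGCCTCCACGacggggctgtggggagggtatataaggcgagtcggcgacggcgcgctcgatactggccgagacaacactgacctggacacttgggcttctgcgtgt

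Calr: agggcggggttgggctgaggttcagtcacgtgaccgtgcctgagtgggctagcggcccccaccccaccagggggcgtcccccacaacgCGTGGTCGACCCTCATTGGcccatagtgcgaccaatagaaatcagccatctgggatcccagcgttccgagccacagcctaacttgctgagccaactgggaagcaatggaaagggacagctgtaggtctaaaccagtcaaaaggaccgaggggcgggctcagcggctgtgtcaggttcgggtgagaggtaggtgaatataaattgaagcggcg

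Hsp90b1: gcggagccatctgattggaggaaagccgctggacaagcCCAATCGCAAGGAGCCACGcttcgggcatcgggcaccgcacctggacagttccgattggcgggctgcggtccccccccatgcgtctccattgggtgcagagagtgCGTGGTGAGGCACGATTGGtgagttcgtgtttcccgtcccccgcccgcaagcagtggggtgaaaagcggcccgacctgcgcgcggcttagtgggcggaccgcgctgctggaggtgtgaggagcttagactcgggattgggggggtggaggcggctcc

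Pdia6: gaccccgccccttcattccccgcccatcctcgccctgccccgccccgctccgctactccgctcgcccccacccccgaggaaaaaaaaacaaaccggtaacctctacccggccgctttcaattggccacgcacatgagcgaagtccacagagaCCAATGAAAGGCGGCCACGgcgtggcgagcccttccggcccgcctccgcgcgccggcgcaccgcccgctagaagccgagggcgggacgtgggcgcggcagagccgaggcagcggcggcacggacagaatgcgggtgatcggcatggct

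The full letters of the ERSE occur in 39 of 32851 promoter entries (0.119%) and in 20 of 13702 tested genes with an entry (0.146%). They occur in 4 of the 89 genes with an entry that fell (4.49%) and in 0 of the 40 that rose. Sdf2l1, Pdia4, Pdia3 and Dnajb11 do not hold these letters in the window, from which nothing follows about the factors that bind there. Creld2, a list member that did not pass, holds 1 match. The motif was picked with the falls of these genes known, so the share describes the windows and supports nothing.

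Astrocyte injury genes fell. Of 29 tested genes in the reactive astrocyte list, 5 passed, all lower (background 0.593%), 26 lay below 0, and the median was -0.33 (-0.14 in Ctrl). In bulk tissue, fewer cells of a type and less RNA per cell cannot be told apart. Lcn2, an iron-siderophore binding acute-phase protein of activated astrocytes (chr2:32384633-32388252), held 3.175, 7.191 and 10.73 RPM at 1 mpi and 0.6526, 1.244 and 4.061 RPM at 3 mpi, a difference of -1.53 (SE 0.30, adjusted p = 0.00861, limma) with overlapping groups. Its 1 mpi Ctrl libraries held 0.7107, 1.738, 2.144, 2.401 and 2.607 RPM, so all 6 AD libraries at 1 mpi were above them. Steap4, a metalloreductase gene induced by inflammation, held 3.408, 5.443 and 9.289 RPM and then 0.6723, 1.422 and 3.889 RPM (-1.24, SE 0.24, adjusted p = 0.00861, limma). In both genes the 3 mpi AD medians were below the lowest 1 mpi AD library, and the overlap comes from the highest 3 mpi libraries.

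S1pr3, a sphingosine-1-phosphate receptor gene, fell from 14.42, 16.34 and 21.94 RPM to 9.278, 11.64 and 14.79 RPM (-0.53, SE 0.11, adjusted p = 0.00914, limma). Tgm1, a transglutaminase gene, fell from 0.556, 1.514 and 2.063 RPM to 0.268, 0.5166 and 0.7818 RPM (-0.61, adjusted p = 0.0246), and S100a10, an annexin A2 partner, from 16.8, 19.48 and 22.39 RPM to 14.25, 15.58 and 16.61 RPM (-0.32, adjusted p = 0.0336) with no overlap, by limma. The calls of Tgm1 and S100a10 were lost without any 1 of 5 and any 1 of 9 of the 12 libraries. The usual gliosis markers did not pass: Gfap, the astrocyte intermediate filament, held 821.1, 940.5 and 1333 RPM and then 650.9, 789.7 and 918.5 RPM (-0.35, SE 0.11, adjusted p = 0.125), the protease inhibitor Serpina3n lay at -0.48 (adjusted p = 0.0537) and the filament Vim at -0.49 (adjusted p = 0.08) in limma. Homeostatic astrocyte genes had 0 of 15 called and a median of -0.09 (-0.06 in Ctrl).

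Microglial genes of the disease-associated state fell in part. Of 28 tested members, 7 passed, all lower (background 0.593%), 19 had an unadjusted p under 0.05 (7.67% of all genes in that direction), 27 lay below 0, and the median was -0.38 (-0.13 in Ctrl). Ctsz, Ctsd and Ctsb, among the 7, are also counted in the lysosome list below. Of the 7 calls, only that of Ctsz held without each library. Clec7a, the beta-glucan receptor Dectin-1 (chr6:129461591-129472779), held 5.401, 11.71 and 17.08 RPM at 1 mpi and 2.723, 4.543 and 9.066 RPM at 3 mpi (-1.06, SE 0.27, adjusted p = 0.0453, limma). Itgax, the integrin CD11c, held 2.672, 4.959 and 8.176 RPM and then 1.325, 1.927 and 3.019 RPM (-1.02, SE 0.25, adjusted p = 0.0336, limma), and Cst7, the cathepsin inhibitor cystatin F, 2.027, 4.109 and 6.669 RPM and then 0.9278, 1.674 and 3.356 RPM (-0.88, SE 0.22, adjusted p = 0.0453, limma). Groups overlapped in all 3 genes. Their calls were lost without any 1 of 9, 7 and 9 of the 12 libraries, in that order, and edgeR called none of the 3.

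Tyrobp, the adaptor of TREM2 signalling, fell from 18.69, 20.78 and 24.86 RPM to 10.2, 15.19 and 17.33 RPM with no overlap (-0.52, SE 0.13, adjusted p = 0.0337, limma), a call lost without any 1 of 7 libraries. Trem2 itself (-0.33, adjusted p = 0.122) and the lipoprotein gene Apoe (-0.31, adjusted p = 0.0555) did not pass. The homeostatic microglia list moved with these genes: 13 of its 14 tested members lay below 0, with a median of -0.22 (-0.04 in Ctrl). Its summed level ran from 656.5 to 788 RPM at 1 mpi and from 544.7 to 667.4 RPM at 3 mpi, and its part in the fall of the other microglial genes was not tested. The threshold was passed by 1 of the 14, in the lower direction (background 0.593%).

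Among Fc receptors, Fcgr1, of the high-affinity receptor for immunoglobulin G, fell from 5.622, 8.299 and 10.39 RPM to 3.583, 4.725 and 6.666 RPM (-0.66, SE 0.14, adjusted p = 0.0127). Fcgr3, named after its value was seen, fell from 20.33, 27.15 and 30.09 RPM to 14.02, 18.23 and 19.79 RPM with no overlap (-0.57, adjusted p = 0.0086). Igsf6, an immunoglobulin superfamily gene of myeloid cells, fell from 2.513, 3.25 and 4.146 RPM to 1.402, 1.709 and 1.958 RPM, also with no overlap (-0.66, SE 0.13, adjusted p = 0.00861). These 3 calls of limma held without each library. Hvcn1, the voltage-gated proton channel of phagocytes, fell from 5.335, 7.363 and 10.41 RPM to 3.026, 4.234 and 5.36 RPM (-0.72, adjusted p = 0.0127), and Ly9, a SLAM family receptor gene, from 3.241, 4.852 and 6.905 RPM to 1.629, 2.257 and 4.125 RPM (-0.76, adjusted p = 0.0451, limma). The call of Hvcn1 was lost without the 3 mpi AD replicate 1 (adjusted p = 0.0526) and with only the 12 compared libraries (adjusted p = 0.0889), that of Ly9 without any 1 of 8 libraries. With the pseudogene covariate Fcgr1 was at -0.60 (adjusted p = 0.205), Fcgr3 at -0.50 (adjusted p = 0.194), Igsf6 at -0.69 (adjusted p = 0.111), Hvcn1 at -0.65 (adjusted p = 0.21) and Ly9 at -0.66 (adjusted p = 0.322), and none stayed called.

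Lysosomal genes accounted for 8 calls among 25 tested members, all lower (background 0.593%), with 22 below 0 and a median of -0.18 (-0.09 in Ctrl). The cathepsins led: Ctss, the cysteine protease of microglia (chr3:95526786-95556403), held 166.2, 205 and 279.6 RPM at 1 mpi and 114.2, 132.1 and 169.6 RPM at 3 mpi (-0.65, SE 0.13, adjusted p = 0.00914, limma), with overlapping groups. Ctsz, an exopeptidase (chr2:174427493-174439039), fell from 49.05, 59.9 and 69.61 RPM to 35.83, 40.14 and 45.05 RPM with no overlap (-0.54, SE 0.11, adjusted p = 0.0127, limma). Ctsd, the aspartic protease (chr7:142375911-142388038), fell from 157.8, 178 and 222.5 RPM to 103, 129.6 and 153.5 RPM with no overlap (-0.53, SE 0.12, adjusted p = 0.0214, limma). The calls of Ctss and Ctsz held without each library, and that of Ctsd was lost without any 1 of 4 (adjusted p up to 0.0739). Smaller falls passed in the glycosidase genes Hexa (-0.29, adjusted p = 0.0157) and Gusb (-0.38, adjusted p = 0.0336), in Psap, the precursor of the saposins (-0.20, adjusted p = 0.0336), and in the protease gene Ctsb (-0.17, adjusted p = 0.0452), by limma.

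Complement and antigen presentation genes had no call. Of 17 tested complement genes, 8 had an unadjusted p under 0.05 in the lower direction (7.67% of all genes, limma), 16 lay below 0, and the median was -0.32 (-0.07 in Ctrl). C3, the central complement component, held 19.73, 45.55 and 71.06 RPM and then 13.68, 15.82 and 31.44 RPM, a difference of -1.15 (SE 0.30, adjusted p = 0.0504, limma) that missed the threshold and passed in edgeR and DESeq2. C1qa, of the initiating complex, lay at -0.56 (adjusted p = 0.0663), while C4b lay at -0.19 (SE 0.18, adjusted p = 0.678, limma). All 14 antigen presentation genes lay below 0, with a median of -0.50 (-0.32 in Ctrl) and 10 unadjusted p-values under 0.05 (7.67% of all genes in that direction, limma). Among them were the invariant chain Cd74 (-1.13, adjusted p = 0.149) and the class I genes H2-D1 (-0.62, adjusted p = 0.146) and B2m (-0.51, adjusted p = 0.17), by limma. The SE of Cd74, H2-D1 and B2m were 0.38, 0.21 and 0.18.

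With the pseudogene covariate the called genes of the astrocyte, disease-associated microglia and lysosome lists lost their calls. Some differences shrank: Lcn2 was at -1.13 (adjusted p = 0.26), Steap4 at -1.18 (adjusted p = 0.161), Clec7a at -0.91 (adjusted p = 0.336), Itgax at -0.81 (adjusted p = 0.337), Tyrobp at -0.43 (adjusted p = 0.334), Ctsz at -0.46 (adjusted p = 0.224) and Ctss at -0.50 (adjusted p = 0.244) in limma. Others were as large or larger with a wider error: S1pr3 was at -0.63 (SE 0.146, adjusted p = 0.0629), Ctsd at -0.54 (SE 0.166, adjusted p = 0.197), Hexa at -0.34 (SE 0.088, adjusted p = 0.112), Gusb at -0.47 (SE 0.127, adjusted p = 0.127) and S100a10 at -0.32 (SE 0.107, adjusted p = 0.22). Cst7 (-0.86, adjusted p = 0.26), Tgm1 (-0.58, adjusted p = 0.221), Psap (-0.21, adjusted p = 0.208) and Ctsb (-0.16, adjusted p = 0.276) stayed near their values without it. Within Xist and Ddx3y libraries the differences were -1.60 and -1.45 for Lcn2, -0.98 and -1.14 for Clec7a, and -0.49 and -0.81 for Ctss. At 5 mpi the AD libraries were near their 3 mpi levels: from 3 to 5 mpi Lcn2 moved by 0.30, Clec7a by -0.25 and Ctss by -0.03, and none passed. In the 3-month cohort, where 117 of 19976 genes passed (0.586%, with 0.22% higher and 0.365% lower), Clec7a (-1.11, adjusted p = 0.0482), Cst7 (-0.99, adjusted p = 0.0234) and Ctss (-0.64, adjusted p = 0.00753) passed from 1 to 3 mpi, and Lcn2 (-1.27, adjusted p = 0.456) did not in limma. The checkpoint receptor gene Lag3, which microglia also express and which was named after its value was seen, passed in both cohorts (-0.61, adjusted p = 0.0127 at 12 months, and -0.71, adjusted p = 0.00419 at 3 months), and was not called with the covariate at 12 months (-0.36, adjusted p = 0.392).

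**Figure D4:**
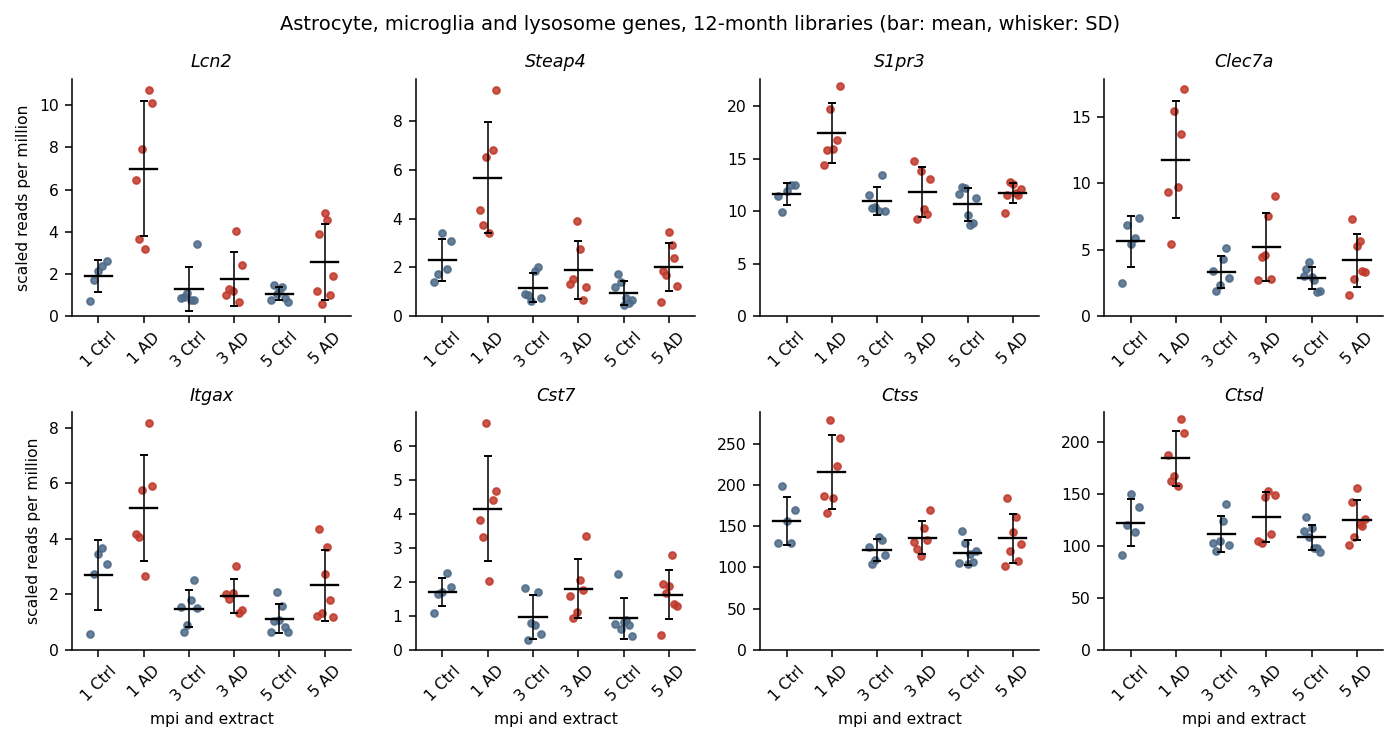
Deposited RPM of astrocyte, microglial and lysosomal genes on the vertical axes, 1 point per library of the 12-month cohort, by time and extract on the horizontal axis, with a bar at each group's mean and a whisker of 1 SD. AD libraries at 1 mpi reach highest (Lcn2 up to 10.73 RPM, Clec7a up to 17.08 RPM), and the 3 and 5 mpi AD libraries lie at similar, lower levels.

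Other genes that rose had small differences. Mfsd4a, a membrane transporter of the major facilitator family (chr1:132022806-132068062), rose after AD extract from 37.25, 43.09 and 45.39 RPM to 46.33, 56.05 and 58.84 RPM with no overlap (0.37, SE 0.062, adjusted p = 0.00142, limma). It also rose after control extract, by a like amount (0.36, adjusted p = 0.0244), with a difference between the extracts of 0.02 (SE 0.091). Shmt1, the cytosolic serine hydroxymethyltransferase of one-carbon metabolism, rose from 1.637, 2.49 and 3.175 RPM to 3.175, 3.715 and 4.785 RPM (0.49, SE 0.11, adjusted p = 0.0274, limma). Its difference after control extract was 0.02, and the difference between the extracts did not pass.

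Spaca6, a sperm-egg fusion gene, rose from 10.03, 12.25 and 13.78 RPM to 12.54, 18.38 and 23.97 RPM (0.53, SE 0.12, adjusted p = 0.0272, limma). The zinc finger genes Zfp46 (0.39, adjusted p = 0.027) and Zfp641 (0.33, adjusted p = 0.0127), Armcx5 (0.34, adjusted p = 0.0214), C78859 (0.46, adjusted p = 0.0336) and Pcdhac2 (0.31, adjusted p = 0.0492), a clustered protocadherin gene whose shared exons make its count uncertain, also passed in limma. Apart from Mfsd4a, each of these calls was lost without at least 1 library: that of Pcdhac2 without any 1 of 10, C78859 7, Spaca6 6, Shmt1 and Zfp46 5 each, Armcx5 2 and Zfp641 1. With the pseudogene covariate Shmt1 (0.40, adjusted p = 0.315), Spaca6 (0.39, adjusted p = 0.357), Zfp46 (0.44, adjusted p = 0.162), Zfp641 (0.22, adjusted p = 0.333), Armcx5 (0.44, adjusted p = 0.0657), C78859 (0.47, adjusted p = 0.218) and Pcdhac2 (0.27, adjusted p = 0.32) were not called, while Mfsd4a was (0.44, adjusted p = 0.019).

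Among the other genes that fell, Itgb5, a microglia-expressed integrin subunit of the vitronectin receptor (chr16:33829665-33949338, named after its value was seen), held 64.9, 76.11 and 84.17 RPM and then 46.31, 51.79 and 52.55 RPM with no overlap (-0.56, SE 0.086, adjusted p = 0.000491, limma). It held without each library and with the pseudogene covariate (-0.55, adjusted p = 0.0446). Rpl12, a ribosomal protein gene with many processed copies and so an uncertain count, fell from 115.7, 125.4 and 159.5 RPM to 68.03, 73.32 and 101.9 RPM (-0.76, SE 0.13, adjusted p = 0.00142, limma). It moved with the library state at 1 and 3 mpi, though not at 5 mpi, where the low-pseudogene AD replicates 3, 6 and 7 held 116, 94.2 and 113 RPM and the other four 109 to 123 RPM. In Ctrl from 1 to 3 mpi it was -0.76 in the 3 libraries of 3 mpi with low pseudogenes and 0.13 in those with high pseudogenes, and with the covariate the AD difference was -0.28 (adjusted p = 0.409). Pseudogenes of the processed kind made up 9 of the genes that fell, which is 1.24% of the 723 tested beside 0.593% of all genes, and 0 of those that rose, with 1 more transcribed processed pseudogene among the falls. The mitochondrial transcripts mt-Co3 (-0.41, adjusted p = 0.0214) and mt-Atp6 (-0.39, adjusted p = 0.0366), whose nuclear copies make their counts uncertain, passed in limma. They were 2 of 13 tested members of their list (background 0.593%), whose median was -0.02. With the pseudogene covariate they were at -0.06 (adjusted p = 0.833) and -0.09 (adjusted p = 0.785), both far nearer 0.

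Gh, growth hormone, had the largest called fall and rests on few libraries. It held 3.82, 7.268 and 36.82 RPM at 1 mpi and 0.5673, 1.487 and 3.896 RPM at 3 mpi (-2.02, SE 0.51, adjusted p = 0.0475, limma), and the call was lost without any 1 of 9 of the 12 libraries, in edgeR and with the pseudogene covariate (-2.17, adjusted p = 0.22). The 1 mpi library with 36.82 RPM, replicate 6, was also the highest in Pomc, another pituitary and hypothalamic hormone gene, at 17.3 RPM. All 8 tested hypothalamus and pituitary genes lay below 0 (median -0.34, -0.02 in Ctrl), with a summed level of 15.94 to 63.28 RPM at 1 mpi and 2.768 to 29.37 RPM at 3 mpi, and the part of neighbouring tissue in the fall of Gh was not tested.

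The genes at the centre of the model did not pass. Mapt, which encodes tau, held 435.6, 448.2 and 479.5 RPM at 1 mpi and 414, 460.2 and 493.6 RPM at 3 mpi, a difference of 0.02 (SE 0.046, adjusted p = 0.87, limma). The amyloid precursor gene App lay at -0.03 (SE 0.039, adjusted p = 0.731). Inhba, an activin subunit gene of active neurons (-0.04, SE 0.20), the proprotein convertase gene Pcsk6 (-0.04, SE 0.078) and the myelin gene Mbp (-0.15, SE 0.092) did not pass either. Inhba was 0.54 in Xist libraries and -0.62 in Ddx3y libraries, a difference that did not pass (adjusted p = 0.0555, limma). Of 22 tested tau kinases, phosphatases and chaperones, none passed, and the median was 0.02. An unadjusted p under 0.05 was found for 3 of them, all higher (6.56% of all genes in that direction, limma). Synapse genes had 0 of 28 called, 25 above 0 and a median of 0.06 (-0.03 in Ctrl). Cholesterol synthesis genes, which SREBP factors drive together, had 0 of 18 called, while all 18 lay above 0 with a median of 0.12 (0.18 in Ctrl). Heat shock genes of the cytosol had 1 of 10 called, lower (background 0.593%), and a median of -0.17 (-0.13 in Ctrl). The called gene was the co-chaperone Bag3 (-0.37, adjusted p = 0.0452, limma). Its call was lost without any 1 of 8 libraries and with the pseudogene covariate (-0.51, adjusted p = 0.0857, limma).

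Of the 39 lists, 29 had no called member, and the other ten held 32 called genes, some of them in more than 1 list. In all, 27 lists had a negative median, 20 of them in Ctrl also. Among cell types, the precursor marker Gpr17 was the only call of 10 oligodendrocyte precursor genes (background 0.593%). It lay at -0.34 (adjusted p = 0.0402), and at -0.33 (adjusted p = 0.26) with the pseudogene covariate, by limma. Myelin genes had 0 of 20 called and a median of -0.13 (0.10 in Ctrl), with a summed level of 5811 to 7628 RPM at 1 mpi and 4787 to 6954 RPM at 3 mpi. The interferon response had 0 of 28 called (median -0.20) and cytokines and NF-kB targets 0 of 20 (median -0.26). Of these 20, 10 had an unadjusted p under 0.05 in the lower direction (7.67% of all genes, limma). Activity-induced genes had 0 of 22 called and a median of 0.08 that turned sign between libraries: 0.37 in Xist libraries and -0.28 in Ddx3y libraries.

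Choroid plexus, the tissue that lies in the ventricles beside the hippocampus, was present in unequal amounts. All 24 of its genes lay below 0 (median -1.25, -0.41 in Ctrl), yet none passed. Their summed level ran from 2229 to 12520 RPM at 1 mpi and from 679.6 to 15460 RPM at 3 mpi. Ttr, the transthyretin gene, held 1069, 4081 and 7451 RPM and then 162.1, 426.8 and 9329 RPM (-2.22, SE 1.1, adjusted p = 0.364, limma). The list median was -2.83 within Xist libraries and 0.30 within Ddx3y libraries. With the choroid plexus score as a covariate, Hspa5 (-0.59, adjusted p = 0.00913), Calr (-0.37, adjusted p = 0.000753), Lcn2 (-1.48, adjusted p = 0.0119) and Ctss (-0.64, adjusted p = 0.0116) stayed called in limma. In that fit 4 of 4 clock genes, 4 of 6 genes of the unfolded protein response, 5 of 5 reactive astrocyte genes, 5 of 8 lysosomal genes and 2 of 7 disease-associated microglia genes stayed called, among 115 of the 167. The 2 microglial ones are Ctsz and Ctsd, which the lysosome list shares.

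**Figure D5:**
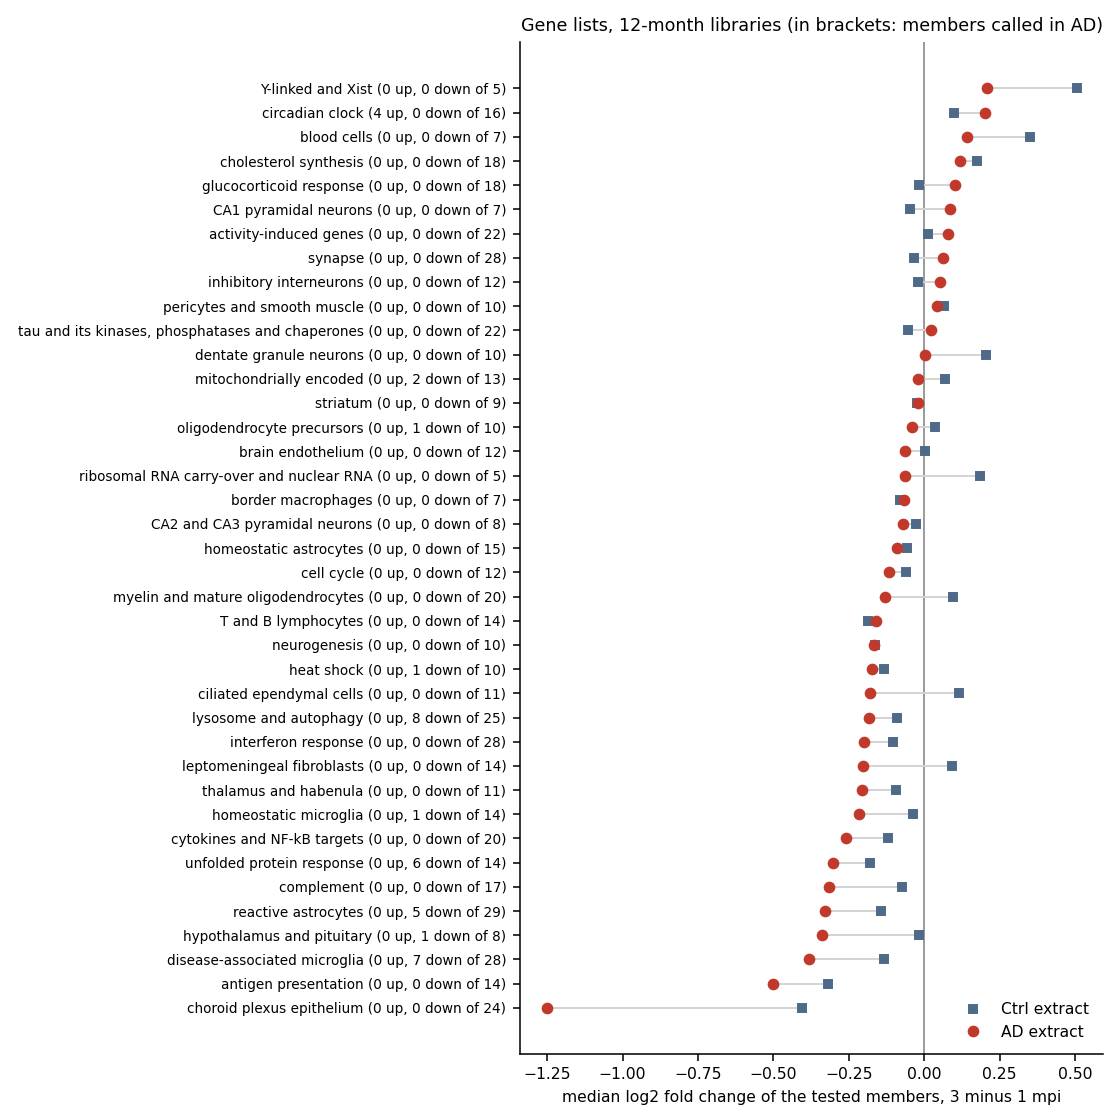
Median 3 minus 1 mpi difference on the log2(RPM + 1) scale of the genes in each list, after AD extract (circles) and after control extract (squares), 1 row per list, with the members called after AD extract in brackets. The circadian clock list (0.20 after AD extract) lies above 0, the reactive astrocyte (-0.33), disease-associated microglia (-0.38) and unfolded protein response (-0.30) lists lie below 0 with smaller values after control extract, and the choroid plexus list lies lowest (-1.25).

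Of the 48 genes that rose, 48 had a negative 5 minus 3 mpi difference, and of the 119 that fell, 93 had a positive one. These comparisons share the 3 mpi AD libraries, so the opposite signs are a description with no test.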

How the data were processed

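Poly(A) RNA libraries of mouse hippocampus were made with a random-primed kit that is not said to keep strand, per the labels' protocols. The submitters' processing notes name STAR, edgeR and Picard and the build GRCm38. Neither versions nor the annotation and counting rule are given in the sources used here. What the authors deposited per gene is a signal in RPM, further divided by 1 factor per library (0.991 to 1.024 in the 12 libraries compared). Reads were recovered by dividing by the value of 1 read, and 100.0% of values came out whole within 0.01 reads. Each table lists 55421 genes with 120 repeated entries and 27 symbols turned into dates, and 96.5% of symbols matched GENCODE vM21, the source of coordinates. Every library column matched 1 label. No 2 libraries agreed within sampling noise (lowest chi-square per degree of freedom 7.01 over 55 pairs of the same group).

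Groups came from the labels. limma-trend was fitted to log2(value + 1) over all 37 libraries of the 12-month table, 1 mean per group, after edgeR's filterByExpr on recovered reads, with Benjamini-Hochberg adjustment and a threshold of 0.05. The 3-month table (29 libraries) was fitted separately. Named genes were the 12 largest called changes each way with a mean log2 level of at least 1, leaving out gene models, 3 each way elsewhere, the 4 members of each of 39 lists with the smallest p-values, and fixed genes (Mapt, App, Ttr, Mbp, Inhba, Pcsk6, Gfap and C4b among them); others are said to be named after their values were seen. Some genes that the rule names are not reported here. The comparison, lists and named genes were chosen with earlier results of these data known. Promoters (250 bases before to 50 after the start) were taken from RefSeq on GRCm38.p6 and matched by symbol. The fit was tested on simulated counts. Replicate numbers were tried as a block although they do not pair the libraries. Alternatives were edgeR's quasi-likelihood test and DESeq2 on recovered reads, relative-log-expression scaling, a pseudocount of 0.1, other filters, covariates, only the compared groups, and each library left out. Added after seeing the data were the pseudogene covariate and the splits by sex-linked genes and by pseudogene state. The software was limma 3.58.1, DESeq2 1.42.0 and edgeR 4.0.16 in R 4.3.3, with matplotlib 3.10.9.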

Additional observations from a re-analysis of the deposited data

Results flagged for a closer look

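Single libraries stood apart from the other 5 of their AD group in 12 of 158 pairs of a named gene and a group, where the gap to the next library exceeded Dixon's 95% critical ratio of 0.625 and chance gives about 7.9 such pairs. The 3 mpi replicate 1 was highest in App (1890 RPM, next 1761) and lowest in Itgb5 (46.31 RPM, next 51.3). The 3 mpi replicate 2 was highest in Rpl12 (101.9 RPM, next 75.7), mt-Co3 (28.91 RPM, next 22.89) and mt-Atp6 (17.59 RPM, next 14.18). The 1 mpi replicate 6 was highest in the hormone genes Gh (36.82 RPM, next 11.03) and Pomc (17.3 RPM, next 4.226), and at 3 mpi replicate 5 was highest in Gh (3.896 RPM, next 1.711), Pomc (3.836 RPM, next 0.9984) and the clock gene Per1 (66.74 RPM, next 57.54). The 3 mpi replicate 6 was highest in the class I genes H2-D1 (127.3 RPM, next 76.21) and B2m (191 RPM, next 117.7).

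The 3 minus 1 mpi difference itself differed between libraries high in Xist and libraries high in Ddx3y for 12 genes that passed an interaction test in limma, with 3 libraries of each kind per group. Of 20084 genes, 2966 had an unadjusted p under 0.05 in that test. Xist minus Ddx3y differences were positive for B4galt5, a galactosyltransferase gene (0.505), Banp (0.964), the MAP kinase inhibitor gene Spred1 (0.452), the activity-induced receptor gene Nr4a3 (0.867), the small GTPase gene Mras (0.351), Ajap1 (0.631), Sbk1 (0.599), the histone methyltransferase gene Kmt5a (0.537) and Gfod1 (0.49). They were negative for Olfr558 (-1.05), Ldlrad2 (-0.979) and 9930014A18Rik (-0.899). B4galt5 was 0.25 in Xist libraries and -0.25 in Ddx3y libraries (adjusted p = 0.00779), Ajap1 0.28 and -0.35 (adjusted p = 0.00323), and Nr4a3 0.38 and -0.49 (adjusted p = 0.0184). Each of the 167 genes called between the times had the same sign in both kinds of library. The genes were called on the same libraries that were then split, so the shared sign follows largely from the choice. It is a description with no test.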

How the results depend on the processing

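Counts of called genes moved with the fit, and each is given beside its value in the reported fit. For AD 3 minus 1 mpi (167), DESeq2 called 356 (157 shared), no filter 97, the pseudogene covariate 25, only the 12 compared libraries 35, Xist libraries 28 and Ddx3y libraries 274. Leaving out 1 library gave 43 to 270: without the 1 mpi AD replicates 2, 3, 5 and 6 there were 270, 103, 88 and 82, and without the 3 mpi AD replicates 1 and 2 there were 43 and 98. For the Ctrl interval (4), edgeR called 9, DESeq2 41, the stricter filter 7, the choroid plexus covariate 34, the Xist covariate 19, the myelin covariate, pseudogene covariate and only the compared groups 0 each, 3 mpi Ctrl libraries with low pseudogenes 12 and with high pseudogenes 42, and leaving out 1 library 0 to 10. For AD 5 minus 3 mpi (39), edgeR called 25, DESeq2 70, no filter 15, the choroid plexus covariate 59, the pseudogene covariate 4, only the compared groups 6, and leaving out 1 library 8 to 48. For the 3-month cohort (117), DESeq2 called 349, no filter 67, the myelin covariate 177, only the compared groups 14, and leaving out 1 library 44 to 190. The test of AD against Ctrl called 0 genes under every alternative run. The cause of these shifts was not tested, beyond the fewer libraries of some fits.

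With the replicate number as a block, 11 genes were called for AD 3 minus 1 mpi (2 higher, 9 lower), 0 for Ctrl, 3 for AD 5 minus 3 mpi and 3 in the 3-month cohort. Same-numbered libraries correlated at -0.294 to 0.105 in their deviations from group means, and none correlated best with its own number, so the numbers do not pair the libraries.

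Values that turned sign were near 0 in the reported fit, apart from that of Ttr, which was widely spread. Inhba (-0.04) became 0.04266 in edgeR, 0.04152 in DESeq2, 0.5386 in Xist libraries, and -0.1917 to 0.101 when 1 library was left out (above 0 without the 1 mpi AD replicate 3 or the 3 mpi AD replicates 1, 3 or 4). Its Xist value (SE 0.175) lay opposite to -0.621 (SE 0.175) in Ddx3y libraries, a difference that did not pass (adjusted p = 0.0555, limma). Pcsk6 (-0.04) became 0.03876 with the myelin covariate, 0.02009 with the pseudogene covariate, 0.04102 in Xist libraries, and -0.08771 to 0.01787 when 1 library was left out (above 0 without the 1 mpi AD replicate 6 or the 3 mpi AD replicate 3). Mapt (0.02) became -0.03094 with the choroid plexus covariate and -0.09318 in Ddx3y libraries, App (-0.03) became 0.02856 with the pseudogene covariate, and Ttr (-2.22) became 0.2226 in Ddx3y libraries.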
